A study of Caenorhabditis elegans with 12 samples.

Results

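The genes eol-1, B0507.8, B0507.10, F42C5.3 and fbxa-75 are 5 of the 46245 genes listed in a table of messenger RNA (mRNA) levels of whole Caenorhabditis elegans. They were picked because their levels were low together in worms fed RNAi bacteria against dve-1 and then atp-2, and high in worms fed RNAi bacteria against dve-1 alone. They were thus chosen by their values in these columns, and all 5 were found in the table by name, in 1 row each. The worms carried the allele glp-4(bn2), which is temperature-sensitive and stops the germ line from proliferating at the restrictive temperature, and were collected on day 1 of adulthood after growth at 20 °C. All groups shared this strain, and none was wild type.

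RNA interference (RNAi) was delivered by feeding. The 6 groups were fed the empty vector L4440, hda-1 RNAi or dve-1 RNAi, each without atp-2 RNAi or with atp-2 RNAi bacteria seeded 30 h after the first clone, per the labels. HDA-1 is a class I histone deacetylase, DVE-1 is a homeodomain protein that acts in the mitochondrial unfolded protein response, and ATP-2 is a subunit of the ATP synthase of mitochondria, so that its loss stresses them. There were 12 libraries, 2 per group, and it is not stated if these were grown as separate cultures. The table gives 1 value per gene and group, in FPKM (sequenced fragments per length of transcript in kilobases, corrected for library size), with both libraries combined. No value per library was at hand, so no difference below has a replicate spread or a test, and all are sizes in these pooled columns.

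EOL-1 is the worm homologue of the mammalian decapping exonuclease DXO, which removes faulty caps from RNA, and it was named for the enhanced olfactory learning of worms that lack it. The gene is known to be induced when mitochondrial function is impaired. FBXA-75 is an F-box protein, a substrate adaptor that joins the cullin CUL-6 in a ubiquitin ligase of the intracellular pathogen response. That response is the set of genes that C. elegans turns on when microsporidia or the Orsay virus enter its cells, and many genes of the pals family belong to it. B0507.10 is listed as ddn-1 in the current annotation, and B0507.8 and F42C5.3 have no other symbol there.

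The members lie at 4 places in the ce11 genome (WBcel235). The eol-1 gene (WBGene00045401) spans positions 13979462 to 13980907 of chromosome V on the minus strand, with 2 annotated transcripts, up to 6 exons and 1208 nt of exon. B0507.8 (WBGene00015225) spans 8760622 to 8762961 of chromosome V, and B0507.10 (WBGene00015227) spans 8758820 to 8760516 of the same chromosome. Both are on the minus strand, and 105 nt separate them. F42C5.3 (WBGene00018345) spans 7286097 to 7287574 of chromosome IV on the minus strand, and fbxa-75 (WBGene00022476) spans 1303714 to 1305461 of chromosome III on the plus strand. All 5 are protein-coding. No other annotated gene overlaps them except a piRNA within B0507.10 that is listed at 0 in every column.

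In worms on the empty vector, with or without atp-2 RNAi, the mRNAs of all 5 genes were at or below 1.499 FPKM. For eol-1, the level was 0.855 FPKM in the L4440 column, 0.871 in L4440 with atp-2 RNAi, 86.2 in the hda-1-labelled column, 60.9 in the hda-1-labelled column with atp-2 RNAi, 34.0 under dve-1 RNAi and 1.78 in dve-1 with atp-2 RNAi. Its highest values were thus in both hda-1-labelled columns, and the next in dve-1 RNAi alone. In fragments, which were estimated from how finely low values are stepped, this was 17 and 20 in the L4440 columns against 1829, 1363, 761 and 37 in the others.

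B0507.10 had the highest level of the 5 in the dve-1 column. It stood at 0.911 FPKM in L4440, 0.981 in L4440 with atp-2 RNAi, 57.0 and 36.9 in the hda-1-labelled columns without and with atp-2 RNAi, 72.3 under dve-1 RNAi and 2.29 in dve-1 with atp-2 RNAi. Its neighbour B0507.8 stood at 0.361, 0.277, 41.7, 25.1, 58.4 and 1.71 FPKM in the same order. Unlike eol-1, both of these genes were listed higher in dve-1 RNAi than in the hda-1-labelled column.

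F42C5.3 was at 1.06 FPKM in L4440, 1.499 in L4440 with atp-2 RNAi, 19.8 and 10.55 in the hda-1-labelled columns without and with atp-2 RNAi, 43.9 under dve-1 RNAi and 2.298 in dve-1 with atp-2 RNAi. The ubiquitin ligase adaptor fbxa-75 was listed at 0 in both L4440 columns, at 2.54 and 1.69 FPKM in the hda-1-labelled columns, at 24.8 in dve-1 RNAi and at 0.606 in dve-1 with atp-2 RNAi. For 4 of the 5 genes the 3 higher columns (both labelled hda-1 RNAi, and dve-1 RNAi alone) lay at least 2-fold above each of the 3 lower ones, on FPKM + 1, and the highest column held at least 5 FPKM. This pattern, set after the values were seen, was met by 36 of 13337 genes with a mean of 1 FPKM or more, or 0.27%, and for these 4 the dve-1 columns fixed part of it. For fbxa-75 the hda-1-labelled columns were nearer to the low end, and a high level was seen in dve-1 RNAi alone.

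**Figure D1:**
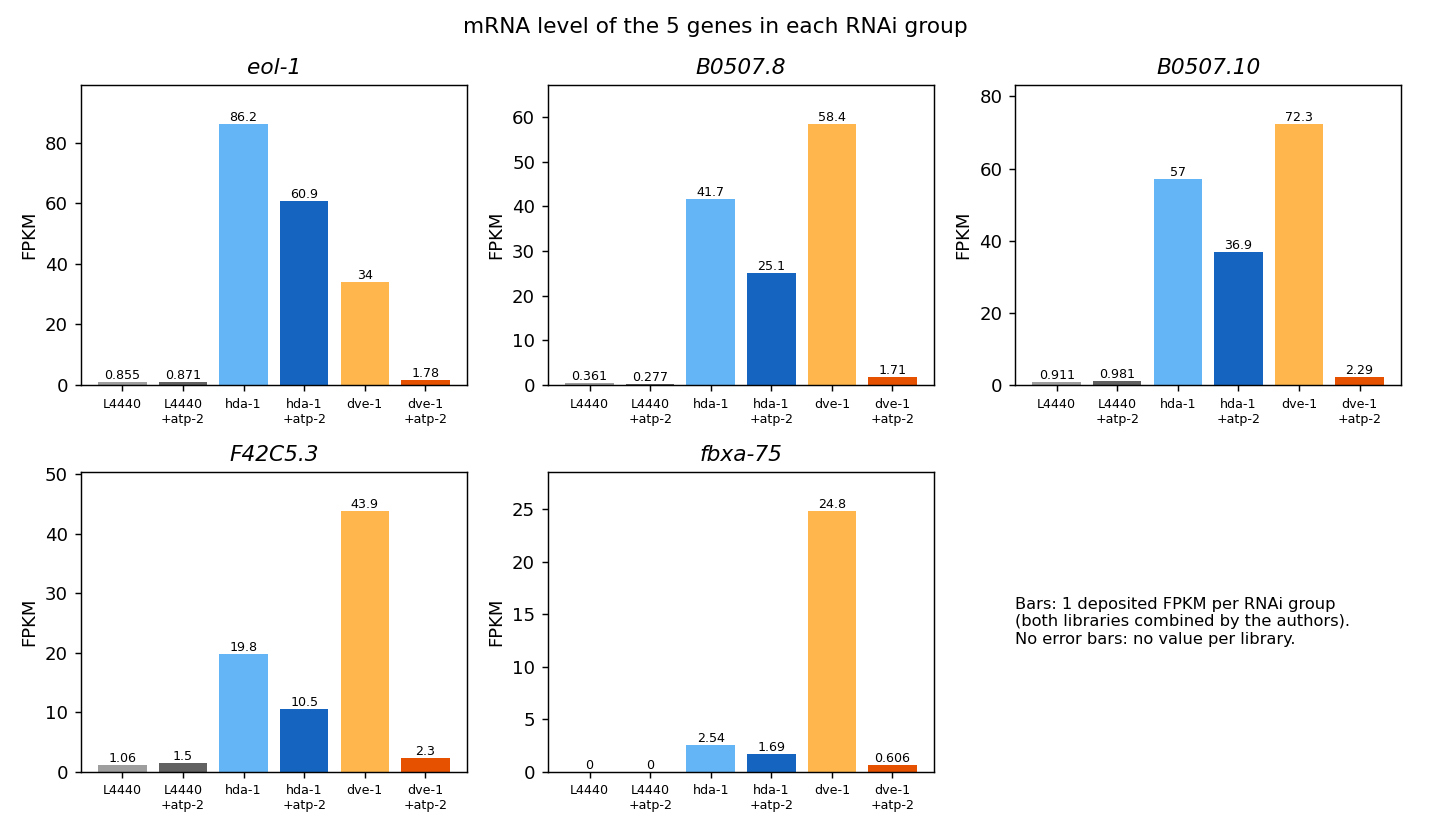
FPKM of each of the 5 genes (vertical axis, from 0, a separate scale for each gene) in the 6 RNAi groups (horizontal axis); each bar is the 1 deposited value of the group, so there are no error bars. For eol-1, B0507.8, B0507.10 and F42C5.3 the bars for the groups labelled hda-1, hda-1+atp-2 and dve-1 stand above the other 3, and for fbxa-75 the dve-1 bar at 24.8 FPKM stands alone.

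Before the comparisons, the RNAi targets themselves were read in each column. The hda-1 signal went against its label, at 1207 and 811 FPKM in the hda-1-labelled columns against 18.8 to 25.1 in the other 4, so these columns are named here only by their label and no direction of hda-1 activity is drawn from them. The dve-1 mRNA was at 11.1 and 14.3 FPKM in the dve-1 RNAi columns against 19.6 to 28.8 elsewhere. The atp-2 mRNA went from 1094 to 598 FPKM with atp-2 RNAi on L4440, from 861 to 554 under the hda-1 label, and from 1090.1 to 423 in the dve-1 columns. The mitochondrial chaperone gene hsp-6, a reporter of mitochondrial stress, was at 107, 116 and 106 FPKM without atp-2 RNAi and at 242, 141.99 and 158.3 with it, in the order L4440, labelled hda-1 and dve-1.

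Ratios were taken as log2 of FPKM + 1, which understates those of genes at low levels, and a gene counted as higher or lower, that is, was called, from a ratio of 2-fold upward and with at least 5 FPKM in its higher column. Ratios were set beside those of the 13337 genes. All 5 genes met the mean of 1 FPKM, with means set mostly by the columns where they were high, so their passing is no result. At these depths, 5 FPKM on a transcript of 1 kb was about 80.8 to 88.9 fragments per column.

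The comparison that chose the genes was atp-2 RNAi on dve-1 RNAi. With atp-2 RNAi added, 5.24% of the dve-1 level was left for eol-1, 2.92% for B0507.8, 3.17% for B0507.10, 5.24% for F42C5.3 and 2.44% for fbxa-75. The log2 ratios were -3.65, -4.46, -4.48, -3.77 and -4.01, which placed the genes 21st, 11th, 10th, 17th and 14th from the lowest of the 13337 genes. All 5 were called lower, as the choice of the genes required, in a comparison where 1.56% of all genes were called lower. The atp-2 mRNA itself differed more in this comparison (log2 ratio -1.36) than on L4440 (-0.87) or in the hda-1-labelled columns (-0.64), and its part in the result was not tested.

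On the empty vector, atp-2 RNAi was accompanied by no called difference in any of the 5 genes, where 1.89% of all genes were called higher and 0.652% lower. The log2 ratios were 0.01 for eol-1, -0.09 for B0507.8, 0.05 for B0507.10 and 0.28 for F42C5.3, and fbxa-75 was listed at 0 in both columns. Other scalings of the columns turned the sign of the small values of eol-1 and B0507.10. In the same comparison hsp-6 and hsp-60, which encode mitochondrial chaperones, were called higher, with log2 ratios of 1.17 and 1.41.

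In the hda-1-labelled columns, atp-2 RNAi went with a lower value for each of the 5 genes, but none reached 2-fold, where 0.645% of all genes were called lower and 0.742% higher. The level left was 70.6% for eol-1, 60.2% for B0507.8, 64.8% for B0507.10, 53.2% for F42C5.3 and 66.5% for fbxa-75. The log2 ratios ran from -0.40 for fbxa-75 to -0.85 for F42C5.3, with a median of -0.61 beside 0.06 over all genes. F42C5.3 was 172nd from the lowest of the 13337 genes and fbxa-75 was 808th. The columns labelled hda-1 RNAi were not used to choose the genes, although the same atp-2 clone was fed in both comparisons.

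The difference between backgrounds was described by subtracting the log2 ratio of atp-2 RNAi on L4440 from that in the other background. For dve-1 RNAi this gave -3.67 for eol-1, -4.36 for B0507.8, -4.53 for B0507.10, -4.04 for F42C5.3 and -4.01 for fbxa-75. All 5 passed the limit of 1, where 2.77% of all genes were called lower and 1.14% higher, and since the dve-1 ratio chose the genes nothing is read from this. In the hda-1-labelled columns the same difference was -0.51, -0.62, -0.66, -1.13 and -0.40 in the same order of genes. It passed the limit for F42C5.3 alone, where 2.35% of all genes were called lower and 1.2% higher, and F42C5.3 did not pass with a pseudocount of 5 or at 3-fold.

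**Figure D2:**
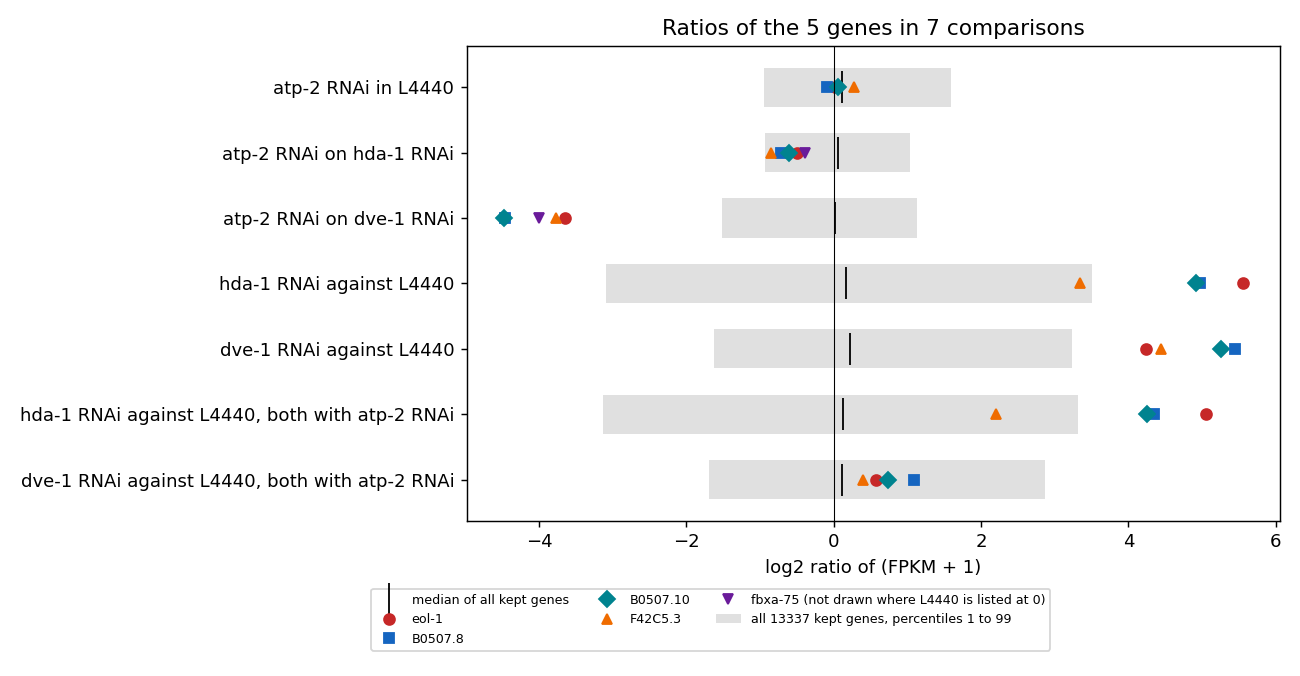
Log2 ratio of FPKM + 1 (horizontal axis) of the 5 genes in the 7 comparisons (vertical axis); coloured marks are genes, the grey box spans the 1st to 99th percentile of all 13337 kept genes and the black tick is their median. With atp-2 RNAi the genes lie between -4.48 and -3.65 on dve-1 RNAi, between -0.85 and -0.40 in the hda-1-labelled columns, and near 0 on L4440; fbxa-75 is not drawn where an L4440 column is the base, since it is listed at 0 there.

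Between the hda-1-labelled column and L4440, 4 of the 5 genes were called higher, where 8.77% of all genes were called higher and 3.25% lower. The plain ratio of FPKM was 101 for eol-1, 115.4 for B0507.8, 62.6 for B0507.10 and 18.7 for F42C5.3, and the log2 ratios were 5.55, 4.97, 4.92 and 3.34. The eol-1 gene was 20th from the highest of the 13337 genes, and F42C5.3 was 153rd. Without replicates, the order of eol-1 and B0507.8 by plain ratio cannot be set against an error, and the base of B0507.8 rested on about 8 fragments. The fbxa-75 gene was listed at 0 in L4440 and at 2.54 FPKM here, short of the minimum level, and was called higher only without that minimum.

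With atp-2 RNAi in both columns, the same 4 genes were called higher under the hda-1 label, where 8.43% of all genes were called higher and 4.34% lower. The plain ratios were 69.9 for eol-1, 90.7 for B0507.8, 37.7 for B0507.10 and 7.04 for F42C5.3, with log2 ratios of 5.05, 4.35, 4.26 and 2.21. The comparisons under the hda-1 label share the L4440 columns with those of dve-1 RNAi below.

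Between dve-1 RNAi and L4440 all 5 genes were called higher, where 7.08% of all genes were called higher and 2.23% lower. The dve-1 column of this comparison was also the one in which the genes were chosen to be high, so its sizes are a description. The plain ratio was 39.7 for eol-1, 162 for B0507.8, 79.4 for B0507.10 and 41.3 for F42C5.3, and fbxa-75 was listed at 0 in L4440. With atp-2 RNAi in both columns none of the 5 was called, where 4.81% of all genes were called higher and 2.39% lower. The levels in dve-1 with atp-2 RNAi were nevertheless above those in L4440 with atp-2 RNAi for all 5, by 2.04 times for eol-1, 6.16 for B0507.8, 2.34 for B0507.10 and 1.53 for F42C5.3, all of them under 5 FPKM.

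The genes differed among themselves in which column was highest. The level of eol-1 in the hda-1-labelled column was 2.54 times that in dve-1 RNAi. The dve-1 level was the higher one for B0507.10 (1.27 times), B0507.8 (1.40 times), F42C5.3 (2.21 times) and fbxa-75 (9.75 times). With atp-2 RNAi the order was the same for all 5 genes, with the hda-1-labelled column 34.2 times the dve-1 column for eol-1, 16.1 times for B0507.10, 14.7 times for B0507.8, 4.59 times for F42C5.3 and 2.79 times for fbxa-75.

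Over the 6 columns, the Pearson correlation of log2(FPKM + 1) was highest between the neighbours B0507.8 and B0507.10, at 0.999, among the 10 pairs of genes. It was lowest between eol-1 and fbxa-75, at 0.664, and was 0.970 between eol-1 and B0507.10 and 0.925 between F42C5.3 and fbxa-75. These are descriptions over 6 columns that share worms fed the same clones, 2 of which chose the genes.

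The pair B0507.8 and B0507.10 lies within a run of genes on the minus strand of chromosome V. B0507.7, the next gene downstream, lies 101 nt from B0507.10 on the same strand, and stood at 0.286 and 0.435 FPKM in the L4440 columns, 7.12 and 7.13 in the hda-1-labelled columns, 2.34 in dve-1 RNAi and 0.185 in dve-1 with atp-2 RNAi. Like eol-1 it was highest in both hda-1-labelled columns, at levels far below those of its neighbours. B0507.6, on the plus strand 8622 nt from B0507.10, stood at 0.724, 1.22, 6.58, 4.72, 4.40 and 1.05 FPKM. B0507.9, the nearest gene on the other side of B0507.8 at 1991 nt, stayed between 0.232 and 1.68 FPKM, and B0507.3 held 4.34 to 9.51 FPKM with its highest value in L4440 with atp-2 RNAi.

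**Figure D3:**
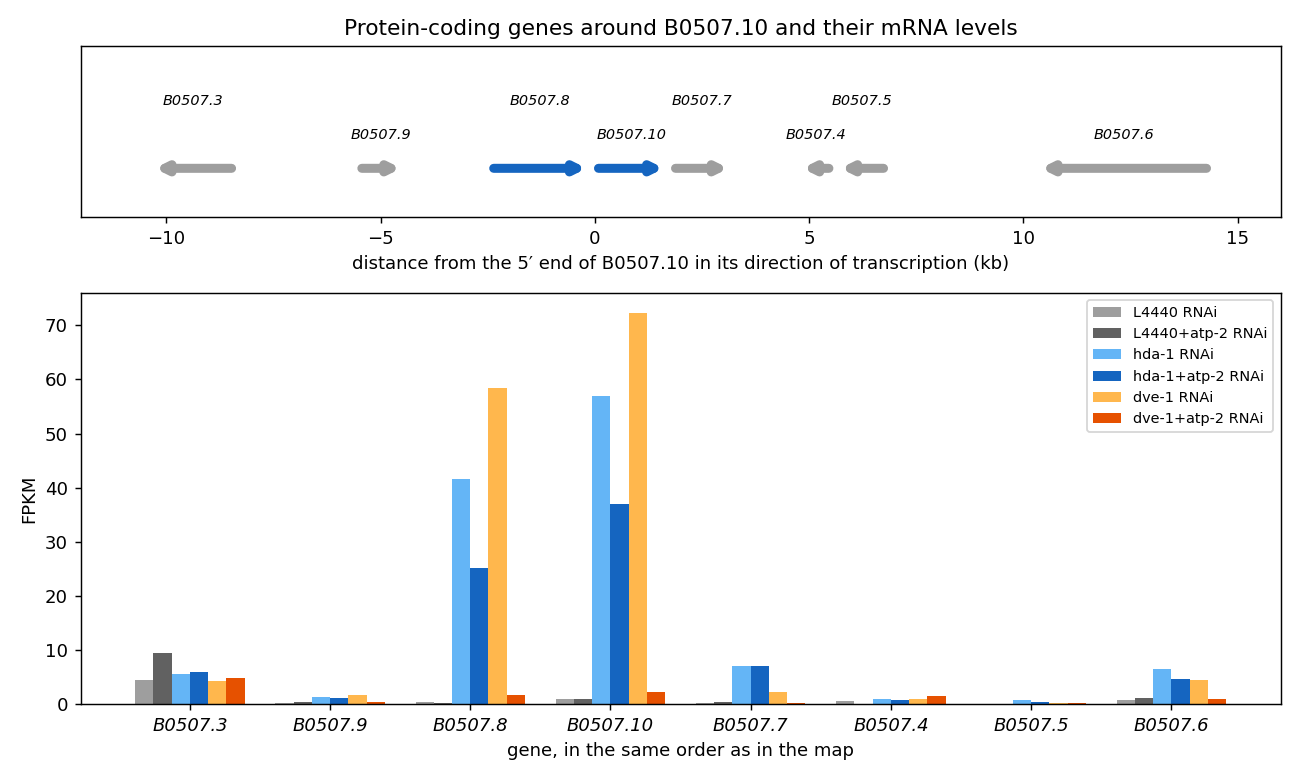
Top, protein-coding genes around B0507.10, with arrows giving direction and the horizontal axis giving the distance in kb from its 5′ end (members in blue, others in grey); bottom, FPKM of each gene in the 6 RNAi groups, 1 deposited value per bar. B0507.8 and B0507.10 reach 58.4 and 72.3 FPKM, while B0507.7 and B0507.6 have the same 3 high columns at no more than 7.13 FPKM and the other 4 genes do not meet the pattern.

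Around the other members no neighbour met the pattern, although C06E4.8, C06E4.2 and T26F2.2 had the same 3 highest columns. F42C5.3 has C06E4.8 at 221 nt, with 1.86, 2.39, 14.7, 11.1, 4.95 and 2.88 FPKM in the order given above for eol-1, and F42C5.4 at 480 nt, with 2.74 to 7.75 FPKM. C06E4.8 was called higher in the hda-1-labelled columns, and so was C06E4.2. The latter stood at 8.12 and 10.1 FPKM there and at 1.18 and 2.95 in the L4440 columns. In dve-1 RNAi C06E4.2 was at 4.21 FPKM, and in dve-1 with atp-2 RNAi at 1.31. The F-box gene fbxa-79 lies 254 nt from fbxa-75 and stayed between 14.9 and 23.4 FPKM, with no call in any comparison. Next to eol-1, the pseudogene T26F2.2 at 660 nt stood at 0.062, 0.288, 2.93, 2.75, 0.555 and 0 FPKM in the same order. T26F2.1 at 2911 nt was listed at 0 in every column, and end-1 at 4220 nt held at most 0.186. Since uniquely mapped reads were kept, the 0 of T26F2.1 is uncertain: another gene nearby has its exon length, 1368 nt, and is also at 0. Of the 22 protein-coding neighbours within 10 kb that are not members, 11 met the mean of 1 FPKM. The pattern was met by 2 of these, B0507.6 and B0507.7, where 0.27% of all genes had it.

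All partners of FBXA-75 in the CUL-6 ubiquitin ligase but fbxa-158 had levels within 3-fold across the 6 columns. The cullin gene cul-6 ran from 4.03 FPKM in L4440 to 8.40 in the hda-1-labelled column, and the RING protein gene rcs-1 from 24.2 in L4440 to 49.1 in dve-1 RNAi. Among the Skp1-related adaptors, skr-3 held 139 to 232 FPKM and skr-4 held 71.9 to 159, both with their highest value in dve-1 RNAi. All 7 ligase genes met the mean of 1 FPKM. In dve-1 RNAi against L4440, 2 were called higher, fbxa-75 and skr-5 (15.9 to 45.7 FPKM), where 7.08% of all genes were called higher. The dve-1 column chose fbxa-75, so its call is no result. The 7, fbxa-75 included, had a median log2 ratio of 0.99 beside 0.22 over all genes.

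The other F-box gene of the ligase, fbxa-158, stood at 0.181 and 0.242 FPKM in the L4440 columns, 6.12 and 4.52 in the hda-1-labelled columns, 2.53 in dve-1 RNAi and 0.916 in dve-1 with atp-2 RNAi. It was the 1 ligase gene called higher under the hda-1 label without atp-2 RNAi, where 8.77% of all genes were called higher. Its highest level was under that label, while fbxa-75 was highest in dve-1 RNAi. With atp-2 RNAi on dve-1 RNAi, fbxa-75 was the 1 gene of the 7 called lower, as its choice required, and the median of the 7 was -0.30 beside 0.02.

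Of 222 F-box genes of the fbxa family, 111 met the mean of 1 FPKM. Under the hda-1 label without atp-2 RNAi, 7 were called higher and 0 lower, and in dve-1 RNAi against L4440, 6 were higher and 3 lower, shares below those of all genes for the higher calls. Of those higher in dve-1 RNAi, fbxa-75 was chosen by that column. The others were fbxa-73 (0.682 to 11.02 FPKM), fbxa-182 (10.98 to 33.6), fbxa-162 (10.4 to 22.3), fbxa-54 (4.65 to 12.3) and fbxa-76 (2.402 to 6.69). None of these other 5 was called lower when atp-2 RNAi was added to dve-1 RNAi. For example, fbxa-73 held 7.53 FPKM there.

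The pals family, genes of unknown biochemical function that mark the intracellular pathogen response, had 38 members in the table, of which 31 met the mean of 1 FPKM. Since the authors kept uniquely mapped reads, levels of near-identical genes in such families are uncertain. Under the hda-1 label without atp-2 RNAi 13 were called higher and 0 lower, where 8.77% of all genes were higher and 3.25% lower. The median log2 ratio was 2.08 beside 0.16 over all genes. In dve-1 RNAi against L4440 7 were higher and 0 lower, where 7.08% of all genes were higher and 2.23% lower. The median was 1.18 beside 0.22. With atp-2 RNAi in both columns, 9 were higher and 2 lower under the hda-1 label, the lower ones being pals-23 and pals-24. Over all genes 8.43% were higher and 4.34% lower, and the median was 1.59 beside 0.13. The same comparison of dve-1 RNAi gave 3 higher and 1 lower, pals-34. There 4.81% of all genes were higher and 2.39% lower, and the median was 0.11 beside 0.12. When atp-2 RNAi was added on dve-1 RNAi, 7 were called lower and 0 higher (median -0.81 beside 0.02). Over all genes 1.56% were lower and 0.997% higher there. None was called in the hda-1-labelled columns, where 0.645% of all genes were lower and 0.742% higher (median -0.39 beside 0.06). On L4440 2 were called higher with atp-2 RNAi, pals-6 and pals-16, where 1.89% of all genes were higher and 0.652% lower.

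Of the 31, 6 had the pattern of 3 high and 3 low columns, which 0.27% of all 13337 genes met. They were pals-26, pals-27, pals-32, pals-33, pals-38 and pals-39. The pals-33 gene stood at 0.745, 0.444, 13.4, 8.24, 17.9 and 0.838 FPKM, and pals-26 at 2.25, 2.67, 33.2, 23.5, 35.97 and 6.60. In these 2, as in B0507.8, dve-1 RNAi was the highest column. In the other 4 the hda-1-labelled column without atp-2 RNAi was the highest, at 8.31 FPKM against 4.84 in dve-1 RNAi for pals-27, 17.4 against 4.52 for pals-32, 6.74 against 5.89 for pals-38 and 23.1 against 11.4 for pals-39.

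Other pals genes did not meet the pattern, although several of them had the same 3 highest columns. Examples short of the 2-fold gap were pals-1, pals-4, pals-5 and pals-14, and pals-2 fell short of 5 FPKM. In dve-1 RNAi pals-1 was at 2.42 FPKM and pals-4 at 2.48, against 18.7 and 14.8 in the hda-1-labelled column without atp-2 RNAi. The pals-6 gene stood at 2.303 FPKM in L4440 and 12.4 in L4440 with atp-2 RNAi, at 25.1 and 16.1 in the hda-1-labelled columns, and at 80.2 and 38.2 in the dve-1 columns, so that it stayed above the L4440 columns when atp-2 RNAi was added to dve-1 RNAi. The pals-14 gene, at 0.252, 2.54, 30.5, 16.6, 60.7 and 12.7 FPKM, did the same. The pals-5 gene, a usual reporter of the response, resembled fbxa-75 with 0 and 0.0514 FPKM in the L4440 columns, 1.80 and 1.08 under the hda-1 label, 8.50 in dve-1 RNAi and 0.456 in dve-1 with atp-2 RNAi.

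**Figure D4:**
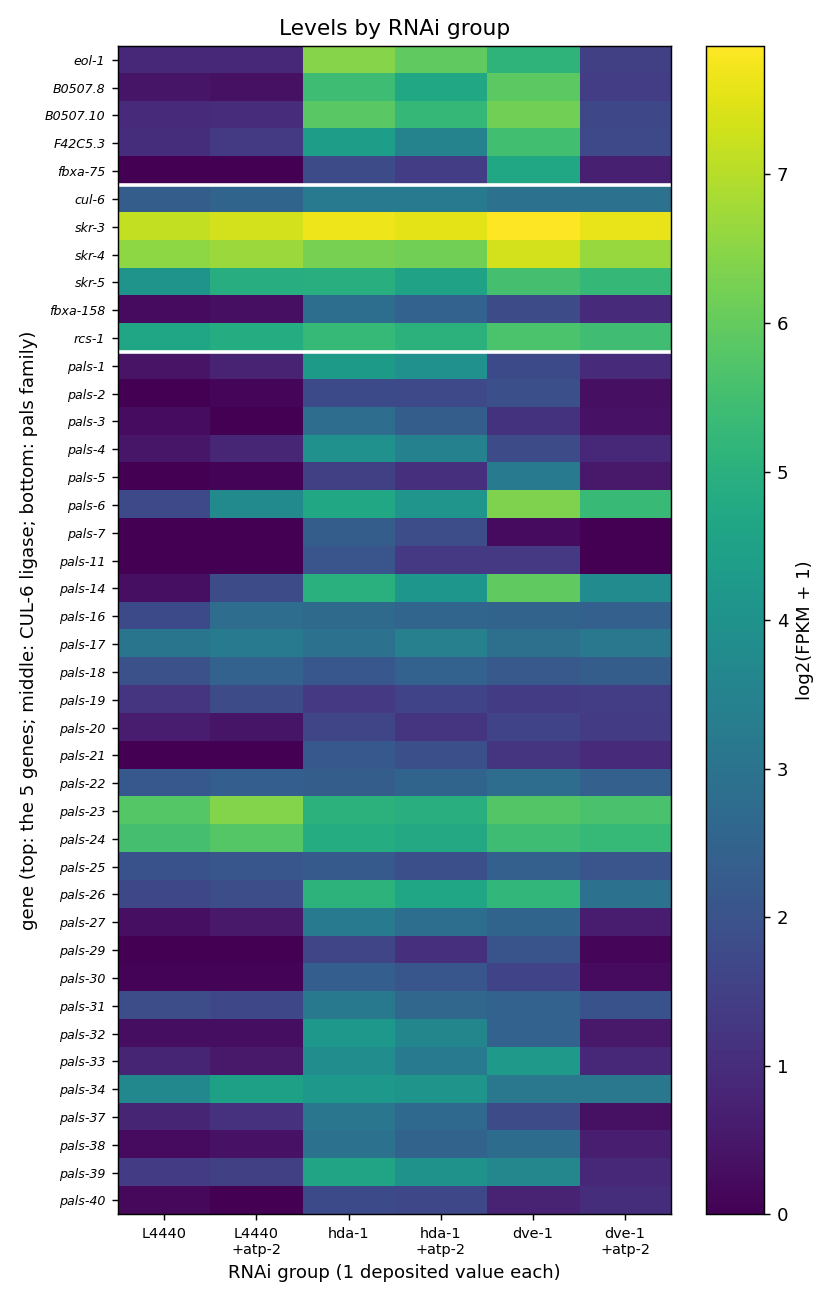
Levels as log2(FPKM + 1) (colour) of the 5 genes (top), the other CUL-6 ubiquitin ligase genes (middle) and the 31 pals genes with a mean of 1 FPKM or more (bottom) in the 6 RNAi groups (horizontal axis, 1 deposited value each). The 5 genes are dark in the L4440 columns and in dve-1+atp-2; pals-33 and pals-38 are dark in the same columns, while skr-3, skr-4 and rcs-1 vary little across the row and pals-6 stays bright in dve-1+atp-2.

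Regulators of the response were seldom called. The gene for the bZIP transcription factor ZIP-1 was the 1 of 9 called in dve-1 RNAi against L4440. There 7.08% of all genes were called higher, so nothing is read from this count. It was at 9.39 FPKM in L4440 and 34.2 in dve-1 RNAi, with 17.9 and 13.98 in the hda-1-labelled columns. With atp-2 RNAi it stayed at 23.8 in the dve-1 columns against 8.31 on L4440, and was again called higher, where 4.81% of all genes were. In that dve-1 column eol-1 was at 1.78 and fbxa-75 at 0.606. The regulator pals-16 was called higher with atp-2 RNAi on L4440, from 2.41 to 6.04 FPKM, where 1.89% of all genes were. The antagonistic paralogues pals-22, which represses the response, and pals-25, which activates it, ran from 3.50 to 5.98 FPKM and from 2.79 to 4.29, with no call in any comparison. None of 9 genes of RNA sensing and antiviral RNAi was called in any comparison. Over all genes the share called higher or lower in a comparison was at most 8.77% in either direction, so nothing is read from this. The drh-1 gene, which encodes the RIG-I-like helicase that senses viral RNA, stayed between 7.94 and 10.1 FPKM.

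The genes most like the mean profile of the 5, by Pearson correlation over the 6 columns, were ranked among 4512 protein-coding genes with at least 300 nt of exon that spanned at least 2-fold. Besides the members B0507.8 (0.998) and B0507.10 (0.997), the leading ones were pals-33 (0.995), Y39G8B.5 (0.994), lpr-6 (0.991), scrm-1 (0.991), D2063.1 (0.991), droe-8 (0.991), pals-2 (0.990), lgc-20 (0.988), pals-38 (0.987) and Y105C5A.9 (0.987). F42C5.3 itself was at 0.987, eol-1 at 0.949 and fbxa-75 at 0.865. The measure takes no account of size: the phospholipid scramblase gene scrm-1 ran from 24.4 to 55.4 FPKM, whereas Y105C5A.9 was listed at 0 in the 3 low columns and at 32.8, 16.2 and 31.8 in the others. Among the 34 genes that are not members and had a correlation of at least 0.95, 6 belonged to the pals family. The share of the family among the 4512 genes was not counted, so nothing is read from this. The profile includes the dve-1 columns that chose the members, so likeness is in part likeness to that choice. Over the 4 columns of L4440 and the hda-1 label, 1398 of 3360 ranked genes reached 0.95, and 0 of the leading 10 were shared. With rank correlation 25 genes, members included, stood at or above the 10th place through ties, and 2 of these leading 10 were among them.

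Markers of the cell types of the worm were read in the same columns, since in whole animals fewer cells of a type and less RNA per cell cannot be told apart. None of 29 markers had the pattern. The summed level of 3 body wall muscle markers was 1680 to 1876 FPKM in the 3 columns where the genes were high and 1448 to 1633 in the other 3, the 1 list of 6 whose ranges did not overlap. The share of all genes whose columns separate in this way was not counted, so nothing is read from it. Summed over 5 intestinal markers the ranges were 799 to 1189 and 1037 to 1069 FPKM, and over 7 female germ line markers 122 to 185 and 108 to 194. Hypodermal and neuronal markers also overlapped.

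The 7 sperm markers moved another way, with sums of 100 and 128 FPKM in the L4440 columns, 3.16 and 1.31 in the hda-1-labelled columns and 422 and 328 in the dve-1 columns. Of these, 5 major sperm protein genes were listed at 0 in at least 1 hda-1-labelled column. Sperm markers therefore differed beside the levels of the 5 genes in some of the comparisons above. The part of sperm and muscle in the result was not tested.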

How the data were processed

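Messenger RNA from 12 libraries of whole glp-4(bn2) worms in 6 RNAi groups was sequenced. Per the labels, the authors aligned reads to ce11 with TopHat2 2.1.1 and obtained levels with Cufflinks; per the study's methods, uniquely mapped reads were kept. The deposited values are FPKM, 1 per gene and group, both libraries combined. Strandedness, annotation and any scaling between libraries are not given in the sources used here. The labels and the study's methods differ on when atp-2 RNAi was added, which could not be settled.

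Of 46245 genes, 45990 were matched by identifier to Ensembl release 115, and 13337 with a mean of 1 FPKM or more were kept. FPKM sums per column were 917209 to 980796. Ratios used log2(FPKM + 1). Among 75 cytosolic ribosomal genes 1 was at 0 in a column, so such values are called listed at 0. The members, lists and tests were chosen with earlier results of these data known. The text names the members, the RNAi targets and mitochondrial chaperones, members of lists of up to 12 genes, up to 5 called genes of longer lists per comparison, the 10 genes most like the mean profile, and neighbours that were nearest or called. The pals and fbxa genes shown beyond these, and the genes with the pattern of 3 high and 3 low columns, were picked after their values were seen. From the lists, arrdc-1 and cde-1 were not matched by name. Related sequences of the members were not compared. Alternatives were pseudocounts of 0.1 and 5, median-of-ratios and upper-quartile scaling, no minimum level, 3-fold, rank correlation, 4 columns and no filter on the mean. The procedure was tested on simulated data. Computation used Python 3.11.15, numpy 2.4.6 and pandas 2.3.3.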

Additional observations from a re-analysis of the deposited data

How the results depend on the processing

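The number of the 5 genes called in each direction kept its value in 103 of 108 recomputations with another pseudocount, scaling, minimum level or fold. Without a minimum level, fbxa-75 was also called higher under the hda-1 label than in L4440, without and with atp-2 RNAi, which made 5 genes in place of 4 in both, and 1 gene in place of 0 was higher in dve-1 RNAi than in L4440, both with atp-2 RNAi; the difference between backgrounds under the hda-1 label passed for 0 genes in place of 1 with a pseudocount of 5 and at 3-fold. No call turned its sign. The genes with a correlation of at least 0.95 to the mean profile numbered 37, 57 with a pseudocount of 0.1, 15 with a pseudocount of 5, and 1398 over the 4 columns of L4440 and the hda-1 label. The 2-fold gap of 3 columns over 3 was met by 66, 13 and 21 genes in place of 36 with pseudocounts of 0.1 and 5 and at 3-fold. The sizes of the ratios moved with the pseudocount: for eol-1 under the hda-1 label against L4440, from 3.96 to 6.50.

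Over all genes, median-of-ratios scaling changed the higher and lower calls from 252 and 87 to 199 and 131 (upper quartile 204 and 121) for atp-2 RNAi on L4440, from 53.5% to 40.2% higher among the calls under the hda-1 label, from 1169 and 434 to 964 and 596 for the hda-1 label against L4440, from 1124 and 579 to 875 and 728 for the same with atp-2 RNAi, and from 944 and 298 to 759 and 489 (upper quartile 770 and 447) for dve-1 RNAi against L4440. The largest shift of the median over all genes was -0.22, in the last of these.

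No paired analysis was possible because each group has 1 pooled column, and for the same reason no replicate was left out. The plain ratios are limited by the few fragments behind the L4440 columns.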

Other observations

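The 32 other genes with the 3 higher columns at least 2-fold above the 3 lower ones, 6 of the pals family among them, included genes at far higher levels than the 5 described, and those named here were picked after the values were seen. The cathepsin B-like protease gene cpr-4 stood at 147 and 175 FPKM in the L4440 columns, 3424 and 3297 in the hda-1-labelled columns, 431 in dve-1 RNAi and 213 in dve-1 with atp-2 RNAi. The cuticle collagen gene col-36 stood at 0.419, 0.695, 50.7, 25.3, 30.0 and 6.55 FPKM in the same order, and the C-type lectin gene clec-210 at 0.786, 0.218, 11.98, 10.02 and 5.14, with 1.35 in dve-1 with atp-2 RNAi. The cytochrome P450 gene cyp-35A1 stood at 0.690, 0.0385, 7.90, 5.11, 8.41 and 1.18 FPKM.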
